A study of Mus musculus with 4 samples.

Results

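Expression of 9 genes of the interferon gamma signalling axis was compared between gonadal white adipose tissue (gWAT) of fl/fl and AD1KO mice. The genes were chosen by name, with earlier results of these data known. They are the ligand Ifng, the receptor chains Ifngr1 and Ifngr2 and the kinases Jak1 and Jak2. The others are the transcription factors Stat4 and Tbx21, the target Irf1 and the inhibitor Socs1. All 9 are among the 17335 genes of the expression table and all 9 reached 0.1 FPKM, the minimum for a gene to be tested, so none was lost to the filter on low values. FPKM is a fragment count corrected for the length of the transcript and the size of the library.

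The fl/fl mice carry Dnmt1 alleles flanked by loxP sites and keep an intact enzyme, and the AD1KO mice are littermates that also carry adiponectin-Cre, which removes Dnmt1 mainly in mature adipocytes. All mice were female and had been on high-fat diet (HFD) for 18 weeks. Blood vessel, stromal and immune cells of AD1KO gWAT are not targeted by this Cre. RNA of 4 animals per group was pooled in equal amounts and sequenced as 1 library, so no spread between animals was available, no p-value is given, and each difference is between 2 libraries. Bisulfite sequencing samples of the series, from male mice on low- or high-fat diet, were not analysed here.

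Depth, estimated from the steps between low FPKM values, was about 17720000 reads for fl/fl and 17535000 for AD1KO. Intervals below are exact 95% intervals on the estimated reads of a gene and cover counting error only. Dnmt1 itself was at 6.99 FPKM in fl/fl and 3.33 FPKM in AD1KO, the direction the labels imply. Which cell types this difference came from was not tested. Adipocyte markers were abundant in both libraries, with Fabp4 at 11151 and 15920 FPKM. A gene was called lower or higher at a log2 ratio of AD1KO over fl/fl of -0.5 or 0.5, the ratio being taken after adding 0.01 FPKM. By that rule 19.1% of 15839 tested genes were lower and 14.3% higher.

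Interferon gamma is a cytokine made mainly by activated T cells and natural killer (NK) cells. STAT4, activated by interleukin-12, and T-bet, the product of Tbx21, switch its gene on. It binds a receptor built of IFNGR1 and IFNGR2 chains, present on most cell types, whose attached kinases JAK1 and JAK2 carry the signal on. GAS elements in target genes receive it, among them those of the transcription factor gene Irf1, whose product binds ISRE and related elements. SOCS1 is induced by the same pathway and blocks the kinases. In obese fat, T and NK cells that make interferon gamma act on macrophages and adipocytes.

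The genes of the axis differed unequally. In AD1KO the ligand Ifng was at 0.0991 times its fl/fl level, Socs1 at 0.210 times and Irf1 at 0.268 times, while the receptor chains and kinases were between 0.713 and 0.923 times theirs. Of the 9 genes, 5 were called lower (Ifng, Socs1, Irf1, Stat4 and Tbx21), 0 higher and 4 neither, beside the 19.1% of tested genes called lower. The median log2 ratio of the 9 was -0.81, with a range from -3.28 to -0.12, and that of all tested genes was -0.04. The whole counting interval lay below 0 for all 9 genes, beside 29.0% of tested genes below 0 and 21.6% above. That count depends on the scale, since it was 8 with scaling by the trimmed mean of M-values, where Ifngr1 dropped out, and 7 with scaling by the upper quartile, where Ifngr1 and Jak1 did. Scaling by the upper quartile also turned the background from 4596 genes below and 3418 above to 3604 below and 4419 above.

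**Figure D1:**
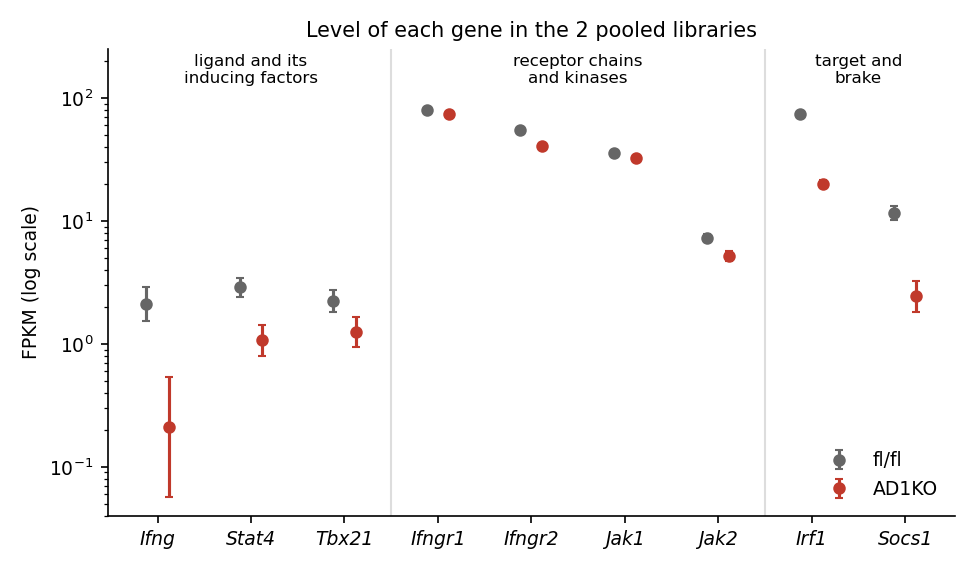
FPKM of each gene (vertical axis, log scale) in the pooled fl/fl library (grey) and the pooled AD1KO library (red), with bars for the 95% counting interval. Receptor chains and kinases lie close together in both libraries, Ifngr1 at 80.7 and 74.5 FPKM, while Ifng, Irf1 and Socs1 lie well apart.

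**Figure D2:**
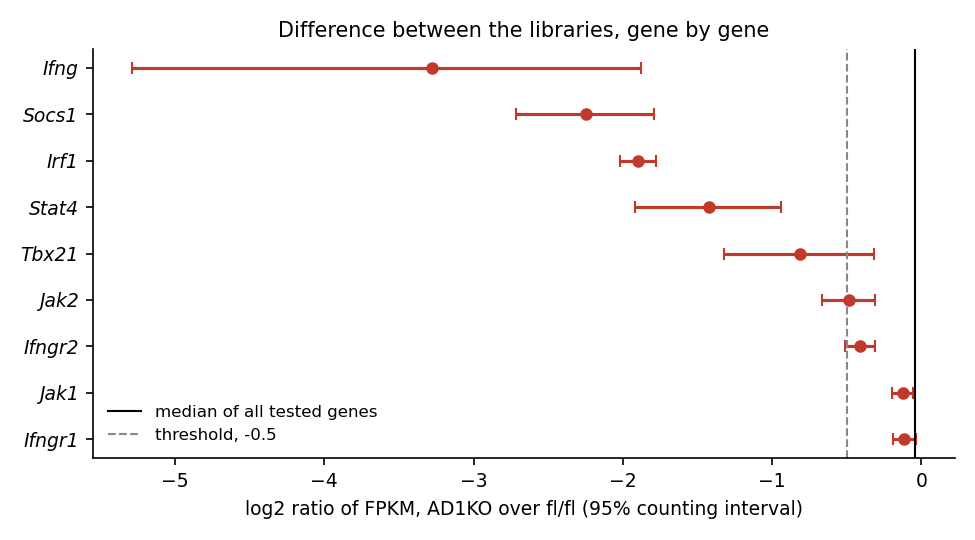
Log2 ratio of AD1KO over fl/fl (horizontal axis) for each gene, with its 95% counting interval as a bar. The solid line is the median of all tested genes, -0.04, and the dashed line the threshold of -0.5, which the points of Jak2 and of the genes below it do not reach.

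Promoters of the 4 genes with the largest differences are shown because each holds a match to an element of this pathway. They are the 250 bases before an annotated start in RefSeq on GRCm38.p6, read along the gene from 5′ to 3′, and the capitals mark matches to GAS (TTCNNNGAA) or ISRE (GAAANNGAAA, or TTTCNNTTTC for the other strand). The intervals are chr10:118440796-118441045 on the plus strand for Ifng, chr11:53769764-53770013 on the plus strand for Irf1, chr16:10785537-10785786 on the minus strand for Socs1 and chr1:52007990-52008239 on the plus strand for the downstream start of Stat4.
Ifng: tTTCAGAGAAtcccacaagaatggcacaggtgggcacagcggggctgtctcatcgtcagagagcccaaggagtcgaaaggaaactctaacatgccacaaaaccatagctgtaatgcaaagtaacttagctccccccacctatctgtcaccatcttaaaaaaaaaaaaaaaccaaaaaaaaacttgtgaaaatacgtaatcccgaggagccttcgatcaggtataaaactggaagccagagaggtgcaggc
Irf1: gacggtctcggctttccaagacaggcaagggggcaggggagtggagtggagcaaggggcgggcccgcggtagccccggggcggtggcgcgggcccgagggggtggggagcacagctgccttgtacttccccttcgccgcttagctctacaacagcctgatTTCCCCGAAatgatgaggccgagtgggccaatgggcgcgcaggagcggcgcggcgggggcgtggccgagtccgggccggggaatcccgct
Socs1: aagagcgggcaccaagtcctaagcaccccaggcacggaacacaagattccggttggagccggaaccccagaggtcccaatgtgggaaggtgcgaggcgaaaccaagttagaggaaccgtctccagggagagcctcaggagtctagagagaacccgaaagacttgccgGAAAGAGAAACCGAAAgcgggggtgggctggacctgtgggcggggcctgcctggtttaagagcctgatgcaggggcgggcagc
Stat4: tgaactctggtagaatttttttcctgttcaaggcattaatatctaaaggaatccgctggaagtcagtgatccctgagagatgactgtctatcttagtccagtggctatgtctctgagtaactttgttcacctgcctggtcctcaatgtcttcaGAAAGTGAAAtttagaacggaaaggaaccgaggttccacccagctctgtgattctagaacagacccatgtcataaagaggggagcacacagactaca

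The Irf1 promoter held a GAS match, TTCCCCGAA, from 90 to 82 bases before the start. The GAS match of Ifng, TTCAGAGAA, lay far from its start, from 249 to 241 bases before it. Socs1 held a pair of ISRE matches, GAAAGAGAAA and GAAACCGAAA, which overlap and together run from 83 to 68 bases before the start. Stat4 held an ISRE match, GAAAGTGAAA, from 97 to 88 bases before its downstream start and no match at the upstream one. RefSeq gave 11 promoters for the 9 genes, of which 4 held a match. Over all 32851 promoters, 7.02% held a GAS match, 2.98% an ISRE match and 9.66% either. No match in these letters was found for Ifngr1, Ifngr2, Jak1, Jak2, Tbx21 or the second Irf1 start. A match is a string of letters, and binding was not measured.

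CpG dinucleotides, the sites that DNMT1 methylates, differed in number among these promoters. In the 250 bases there were 1 and 3 CpGs at the Stat4 starts and 6 at Ifng, beside a median of 6 over all promoters. Ifngr1 held 11, Socs1 13, Tbx21 16, Jak1 19, Ifngr2 25 and Jak2 37 CpGs, and the Irf1 starts 25 and 35. Among the genes called lower, the Stat4 starts thus held fewer CpGs than the median promoter, Ifng as many, and Socs1, Tbx21 and Irf1 more. Methylation of these promoters was not analysed here.

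Ifng (gene 15978, chromosome 10 of mm9, 117878103 to 117882948, plus strand, 4 exons) was at 2.12 FPKM in fl/fl (interval 1.52 to 2.88) and 0.21 FPKM in AD1KO (0.0570 to 0.536). These levels rest on about 41 and 4 reads. On the log2 scale the ratio was -3.28, and its interval, -5.28 to -1.88, was the widest of the 9 genes. Ifng was the lowest of the 9 genes in AD1KO, and 1.48% of tested genes had a lower ratio. Since AD1KO holds so few reads, the direction is firmer than the size, and adding 1 FPKM in place of 0.01 gave -1.37.

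Stat4 (gene 20849, chromosome 1, 52043992 to 52164032, plus strand, 24 exons), which carries the interleukin-12 signal to the Ifng gene, was at 2.89 FPKM in fl/fl and 1.07 FPKM in AD1KO. About 135 and 50 reads gave a log2 ratio of -1.43 (interval -1.92 to -0.94). Tbx21 (gene 57765, chromosome 11, 96959385 to 96976645, minus strand, 6 exons), whose product T-bet directs Th1 and NK differentiation, was at 2.22 and 1.26 FPKM. Its log2 ratio of -0.81 (interval -1.32 to -0.32, about 96 and 54 reads) was the smallest difference among the 5 genes called lower. The intervals of Ifng and Tbx21 do not overlap, so the ligand differed by more than this factor at the depth of these libraries. Stat4 and Tbx21 cannot be ordered, as their intervals overlap.

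The receptor chains were among the most abundant of the 9 genes. Ifngr1 (gene 15979, chromosome 10, 19311755 to 19330035, plus strand, 7 exons), the chain that binds the ligand, was at 80.7 FPKM in fl/fl and 74.5 FPKM in AD1KO, a log2 ratio of -0.12 (interval -0.19 to -0.04). Ifngr2 (gene 15980, chromosome 16, 91547317 to 91565414, plus strand, 7 exons), the chain that completes the signalling receptor, was at 54.7 and 41.1 FPKM. Its log2 ratio of -0.41 (interval -0.51 to -0.31) fell short of the threshold but lay below that of Ifngr1, with no overlap of the intervals. The level of Ifngr1 was 1.48 times that of Ifngr2 in fl/fl and 1.81 times in AD1KO. Against the ligand the receptor stood far higher, Ifngr1 at 38.1 times the FPKM of Ifng in fl/fl and 355 times in AD1KO.

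Jak1 (gene 16451, chromosome 4, 100824972 to 100937887, minus strand, 25 exons) serves many cytokine receptors and was at 35.7 FPKM in fl/fl and 32.7 FPKM in AD1KO, a log2 ratio of -0.13 (interval -0.20 to -0.05). Jak2 (gene 16452, chromosome 19, 29326318 to 29387570, plus strand, 25 exons), which is bound to the IFNGR2 chain, was at 7.29 and 5.20 FPKM. Its log2 ratio of -0.49 (interval -0.66 to -0.31) was the nearest to the threshold from outside, and that of Tbx21 the nearest from inside. The intervals of the kinases do not overlap. The ligand-binding chain and Jak1 thus differed by less than Ifngr2 and Jak2. With scaling by the upper quartile the ratios of Ifngr1 and Jak1 were -0.03 and -0.04. An exon of Raver2, at 1.68 and 2.99 FPKM, overlaps Jak1 on the other strand, and whether reads were counted by strand is not given in the sources used here.

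The target gene Irf1 (gene 16362, chromosome 11, 53583516 to 53591876, plus strand, 10 exons) was at 74.7 FPKM in fl/fl and 20.1 FPKM in AD1KO, with about 2688 and 714 reads. Its log2 ratio was -1.90, and the interval from -2.02 to -1.78 makes it the most precisely measured of the 5 lower genes. In fl/fl Irf1 was the second most abundant of the 9 genes, after Ifngr1, and in AD1KO the fourth, after Ifngr1, Ifngr2 and Jak1. The intervals of the levels do not overlap at any of these steps. Socs1 (gene 12703, chromosome 16, 10783901 to 10785629, minus strand, 2 exons), the feedback inhibitor, stood at 11.7 and 2.45 FPKM, with about 234 reads and 49 reads. The interval of its log2 ratio, -2.25 (-2.72 to -1.79), overlaps that of Irf1. Socs1 was above Jak2 in fl/fl and below it in AD1KO, without overlap of their intervals in either library. At the low end of the order in fl/fl, the levels of Stat4, Tbx21 and Ifng had overlapping intervals, and in AD1KO those of Tbx21 and Stat4 did. An exon of an antisense transcript, Gm17334, overlaps Irf1 and was not analysed here. No run of 50 bases in the coding transcripts of the 9 genes was shared with a coding transcript of another gene. Noncoding transcripts and the opposite strand were not searched.

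**Figure D3:**
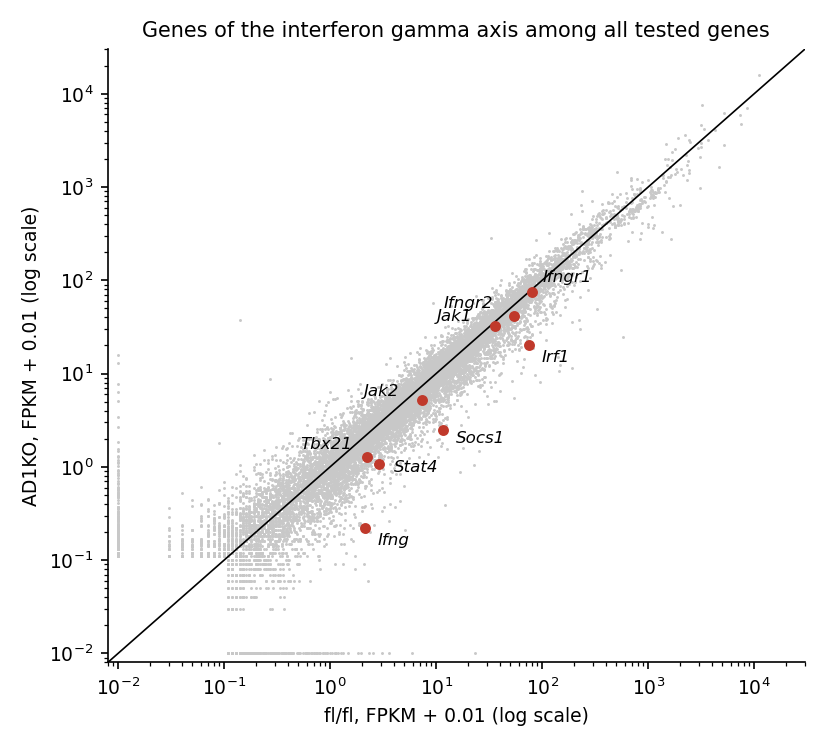
Level of each of 15839 tested genes in fl/fl (horizontal axis) and AD1KO (vertical axis), as FPKM plus 0.01 on log scales, with the 9 genes in red and equal levels on the line. Ifngr1 and Jak1 lie near the line, and Ifng, Irf1 and Socs1 lie below it.

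Genes around the axis were taken from lists written for this tissue, with earlier results of these data known. Their counts therefore describe the lists and are not independent support. Over all tested genes, 19.1% were called lower and 14.3% higher, and 29.0% had the whole interval below 0. Among 32 further genes that interferon gamma induces, 30 were lower, 0 higher and 2 neither, with a median log2 ratio of -1.73. Among those with reads in both libraries the lowest log2 ratio was that of Iigp1, an immunity-related GTPase, at 192 FPKM in fl/fl and 11.5 FPKM in AD1KO (log2 ratio -4.06, interval -4.19 to -3.94). Batf2, a transcription factor gene of activated macrophages, was at 10.3 and 1.25 FPKM (log2 ratio -3.04). B2m, the light chain of MHC class I, was the most abundant gene of the list, at 7393 and 5948 FPKM (log2 ratio -0.31), and was called neither. Nos2, the inducible nitric oxide synthase, was at 2.14 and 1.52 FPKM (log2 ratio -0.49) and was called neither as well. Cxcl11 is listed at 0 in AD1KO and had about 6 reads in the other library. If 3 reads are allowed for a listed 0, it was 1.98-fold lower, a bound that leaves out counting error. With the listed 0 taken as 0 reads, the interval of its log2 ratio ended at -0.22. With Irf1 and Socs1 the list had 34 genes and a median of -1.79, or -1.73 with Cxcl11 at that bound.

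The other JAK and STAT genes analysed were mixed. Stat2, a transcription factor gene of the type I interferon response, was at 13.0 FPKM in fl/fl and 4.89 FPKM in AD1KO (log2 ratio -1.41), and the kinase gene Tyk2 was at 8.18 and 5.18 FPKM (-0.66). These were the 2 lower genes of 7, beside 19.1% of all tested genes, a count too small to set the list apart. The other 5, Stat3, Jak3, Stat5b, Stat6 and Stat5a, had log2 ratios from -0.46 to 0.18 and were called neither. Of the 7 tested receptor chains of the same structural class, Il10ra (log2 ratio -1.45), Il10rb (-0.62) and Ifnlr1 (-0.77, about 11 and 6 reads) were lower. That is 3 of 7, beside 19.1% of all tested genes. The interval of Ifnlr1, -2.58 to 0.70, includes 0. Ifnar1 and Ifnar2, the chains of the type I interferon receptor, were called neither, at -0.32 and 0.18. Il22ra1, an interleukin-22 receptor chain, was the 1 higher gene, with about 7 reads and 27 reads (log2 ratio 1.81, interval 0.73 to 3.41).

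Of the other 7 interferon regulatory factor genes analysed, 6 were lower and 0 higher, with a median log2 ratio of -0.77. Irf7 was at 34.4 and 13.2 FPKM (log2 ratio -1.38), and Irf8, a factor of macrophages and dendritic cells, at 56.6 and 23.8 FPKM (-1.25). Irf3, which is made constantly and activated by phosphorylation, was at 23.3 and 22.8 FPKM (-0.03). The interval of Irf1 lay below those of the other 7. Of 12 further genes that restrain JAK-STAT signalling, 5 were lower and 0 higher, beside 19.1% and 14.3% of all tested genes. Their median was -0.43. The lower genes were the phosphatase genes Ptpn6 (-1.56) and Ptpn1 (-0.84), the interferon-induced Usp18 (-1.23), and Socs3 (-1.12) and Socs2 (-0.72). Cish, another inhibitor of the SOCS family, was at 1.77 and 1.79 FPKM (log2 ratio 0.02). The interval of Socs1 lay below those of all 12.

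The list of cytokines and receptors that induce Ifng also holds the kinase gene Tyk2, counted above among the JAK and STAT genes. Of its 14 tested genes 12 were lower and 0 higher, with a median log2 ratio of -1.12. Il12rb1, a chain of the interleukin-12 receptor, was at 2.37 FPKM in fl/fl and 0.19 FPKM in AD1KO, about 116 and 9 reads. Il18r1 and Il18rap, the chains of the interleukin-18 receptor, had log2 ratios of -1.49 and -1.93, while Il18 itself was at 10.4 and 8.40 FPKM (-0.31). For 9 of the 14 the whole interval lay below 0, beside 29.0% of all tested genes. The interval of Il18, counted among them, ended at -0.0004. It would cross 0 under each of the other scalings, which raise log2 ratios by 0.036 to 0.089. Genes outside those 9 include Il12a, Il27, Il12rb2 and Il23r, with 13 reads or fewer in each library. Their intervals include 0, so that this depth could not show a difference, though each counts among the 12 called lower. Il15ra, with about 252 and 226 reads, was called neither (-0.14, interval -0.41 to 0.12).

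Of 8 regulators and receptors of Th1 and cytotoxic cells, 7 were lower. The chemokine receptor gene Cxcr3 was the lowest, at 11.0 and 2.90 FPKM (log2 ratio -1.92), and Eomes, the relative of Tbx21 in cytotoxic cells, was at 1.33 and 0.44 FPKM (-1.57, interval -2.26 to -0.96). Zeb2 was called neither (0.10). Of 7 tested genes of the opposing helper lineages, 4 were lower, beside 19.1% of all tested genes. Foxp3, the factor of regulatory T cells, was at 1.25 and 0.30 FPKM (-2.02, interval -2.86 to -1.32). Bcl6 was called neither (-0.13). The type 2 cytokine genes Il13 and Il5 are listed at 0 for fl/fl, and AD1KO had about 7 and 3 reads of them. If 3 reads are allowed for a listed 0, Il13 was 2.36-fold higher, a bound that leaves out counting error, and Il5 gives no fold. With the listed 0 taken as 0 reads, the interval of the Il13 log2 ratio started at 0.54. With those genes at their bound or left out, the median of the remaining 6 was -0.73.

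Cell type markers differed in direction from one cell type to another. All 9 tested T cell markers were lower, with a median log2 ratio of -1.58 and a summed level of 104 FPKM in fl/fl and 36.3 FPKM in AD1KO. Among them Cd3g had the lowest ratio, -1.85, and Cd2 the highest, with 20.6 and 10.3 FPKM. All 8 NK markers were lower, with a median of -2.05, a range from -2.91 to -1.79 and a summed level of 62.0 and 15.2 FPKM. None of the markers tested is listed at 0. Ncr1, the defining receptor of NK cells, had about 39 and 5 reads. All 8 macrophage markers were lower, with a median of -1.04 and summed levels of 3468 and 1717 FPKM, and so were the 4 pan-leukocyte markers, with a median of -1.24. Of 8 adipocyte markers 7 were higher, with a median of 0.56 and summed levels of 17145 and 26110 FPKM. The 4 endothelial and 4 stromal markers were all called neither, with medians of 0.31 and 0.15. The part of cell numbers in the results for the axis was not tested, and in bulk RNA fewer cells of a type and less RNA per cell cannot be told apart.

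Set beside these markers, the genes of the axis spread widely. The counting interval of Ifng, from -5.28 to -1.88, is wide because AD1KO holds about 4 reads. It overlaps those of all 8 NK markers and of 6 of the 9 T cell markers, an overlap that its width makes likely. Tbx21, expressed by the same cells, had an interval that lay above those of 6 of the 8 NK markers and 4 of the 9 T cell markers, and overlaps those of the other NK markers, Klrd1 and Prf1, and of the other 5 T cell markers. The Irf1 interval overlaps those of all NK markers and of 8 of the 9 T cell markers, all but Cd2, and lay below those of 7 of the 8 macrophage markers. Fcgr1, the exception, is itself an interferon gamma induced gene and stands in both lists. The Stat4 interval overlaps those of all 9 T cell, all 8 NK and all 4 pan-leukocyte markers. It lay below those of 3 of the 8 macrophage markers. That of Socs1 overlaps those of all 8 NK markers and 8 of the 9 T cell markers. It lay below those of 7 of the 8 macrophage markers and all 4 pan-leukocyte markers. The intervals of Ifngr1 and Jak1, expressed by most cell types, lay above those of all tested leukocyte markers and below those of all 8 adipocyte markers.

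**Figure D4:**
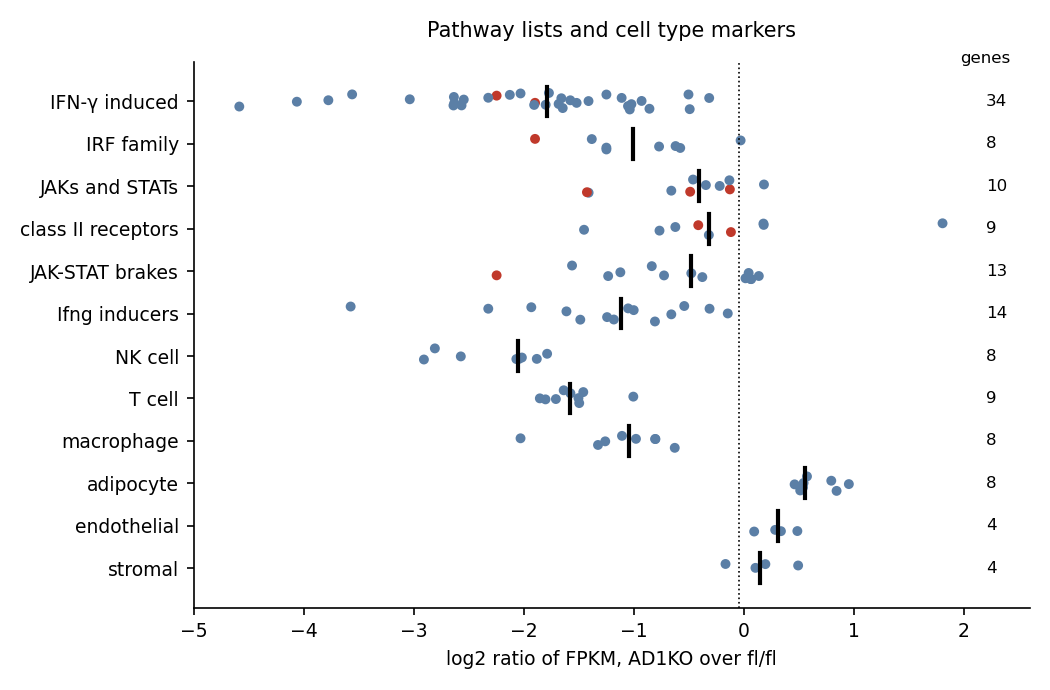
Log2 ratio of AD1KO over fl/fl for each tested gene of the pathway and marker lists (1 point a gene, genes of the axis in red), with the median of each list as a bar and the number of genes at the right. The dotted line is the median of all tested genes, -0.04, and the leftmost point, Cxcl11, is listed at 0 in AD1KO, so that its place depends on the 0.01 FPKM added.

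The 5 genes with at least 1 FPKM in 1 library whose log2 ratio was nearest to that of Ifng were Tgtp2, Fcgr4, Tlr12, Wfdc2 and Gbp11. Their ratios were within 0.10 of that of Ifng, a likeness over only 2 libraries that does not set them apart, since the interval of Ifng holds the ratios of 121 of the 12164 such genes. Tgtp2, an interferon-inducible GTPase gene with a near-identical copy, was at 54.8 FPKM in fl/fl and 5.41 FPKM in AD1KO. Fcgr4, an Fc receptor gene of macrophages, was at 140 and 15.1 FPKM. Gbp11, of the guanylate-binding protein family, was at 3.07 and 0.33 FPKM, Tlr12, a Toll-like receptor gene, at 1.62 and 0.15 FPKM, and Wfdc2 at 3.64 and 0.39 FPKM.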

How the data were processed

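RNA of gWAT was pooled by group and sequenced as 1 mRNA library each for fl/fl and AD1KO. Clean reads were aligned to mm9 by a service provider, and the authors deposited FPKM per gene, with 0 written as 0.01. The aligner and quantifier are not given in the sources used here. The table also holds fold changes, P-values and FDR of the authors' own comparison, which were not used.

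Values of 0.01 were set to 0. Depth was estimated by finding the library size and the shortening of transcript length, 120 bases, that put low FPKM values on whole reads. Of 672 low values in fl/fl and 670 in AD1KO, 83.8% and 83.3% lay within 0.15 reads of a whole number. For the fold bounds a listed 0 was set to 3 reads, a chosen allowance and not a count. Log2 ratios were taken after adding 0.01 FPKM, for 15839 genes with at least 0.1 FPKM in 1 library. Ratio intervals are Clopper-Pearson and level intervals exact Poisson. The steps were tested on simulated data. Positions are from GENCODE on mm9 and promoters from RefSeq on GRCm38.p6, on which no expression values were placed.

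Members and lists were chosen with earlier results of these data known. Named genes are the members, Dnmt1, the extremes, most abundant genes and exceptions of each list, and the 5 genes nearest to Ifng. Of the lists, 2 genes are not reported here. Some other list genes were named after their values were seen. Alternatives were pseudocounts of 0.1 and 1 FPKM, other minimums, scalings and call rules. Work was done in Python 3.11.15 with SciPy 1.17.1 and NumPy 2.4.6, and figures were drawn with Matplotlib 3.10.9.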

Additional observations from a re-analysis of the deposited data

How the results depend on the processing

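No paired analysis was possible because each group is a single pool. Each of the 9 genes stayed below 0 under all 5 alternative pseudocounts and scalings, and 5 of the 9 were called lower under each pseudocount, scaling and minimum. A threshold of 1 left 4. Of 45 alternative values of the 9 genes, 41 lay within the counting interval. Those that did not were Ifng at -1.37 and Stat4 at -0.91 with 1 FPKM added, which shrinks ratios of low genes by construction, and Ifngr1 at -0.027 and Jak1 at -0.037 with scaling by the upper quartile. Of 695 values of other list genes, 619 lay within the interval, and no gene called lower or higher changed sign. Irf3, called neither, turned from -0.03 to between 0.0081 and 0.061 under the 3 other scalings.

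Called by the whole counting interval, 9 of the genes were lower, 9 also with scaling by the median of ratios, and 8 with the trimmed mean of M-values. Scalings of that call were added after the data were seen. Over all genes, 3029 were lower and 2265 higher. Adding 1 FPKM gave 1661 and 965, a threshold of 1 gave 1417 and 910, and the interval call 4596 and 3418. A minimum of 1 FPKM, with fewer genes tested, left 1281 higher. With the interval call, 3877, 4419 and 3788 genes were higher when scaled by the trimmed mean of M-values, the upper quartile and the median of ratios. Depth limits Ifng most, at about 4 reads in AD1KO.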
